A study of Homo sapiens with 4 samples.

Results

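Microexons of 3 to 27 nt were examined in the RNA-seq of U87MG cells transfected with a decoy oligonucleotide against RBFOX1/2. Every cassette exon of the deposited skipped exon events whose annotated length lay from 3 to 27 nt was taken, with 1 event per exon, the event with the most counts where an exon had several. This gave 470 microexons in 431 genes, 0.814% of the 57729 distinct cassette exons, and 262 of them (55.7%), in 249 genes, had enough counts to be tested. U87MG is an established human glioblastoma cell line, which the labels describe as likely glioblastoma. The cells of all 4 libraries were transfected with 2.5 µM oligonucleotide and Lipofectamine 2000, 2 with RBFOXi, built of repeats of the motif that RBFOX proteins bind, and 2 with SCRM, the scrambled control. No library came from untransfected cells, and by the labels only the oligonucleotide of RBFOXi replicate 1 carried Cy5, a dye. The design text calls the replicates independent.

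Microexons add only a few amino acids to a protein, and are best known from neurons, where many are switched on by the splicing activator SRRM4. They are too short to hold many exonic enhancers, so that their recognition leans on sequences in the introns beside them, among these the polypyrimidine tract, sites of the repressor PTBP1 and UGCAUG, the site of RBFOX1, RBFOX2 and RBFOX3. As background, RBFOX proteins bound in the intron downstream of an exon generally favor its inclusion, and those bound upstream generally favor skipping.

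The reference sequences below belong to some of the microexons named in the comparison, and show how little of the transcript is exon and where UGCAUG lies. Of those printed only the MARK3 exon passed the adjusted threshold given further below. The DIAPH1 exon, which also passed it, is not printed. All were read from GRCh37, which is hg19, on the strand of the gene, 5′ to 3′, with introns in lower case and with the exon and each intronic TGCATG, the DNA form of UGCAUG, in capitals. The first 2 are exons with lower inclusion in both RBFOXi libraries and a UGCAUG downstream, beginning at nucleotide 35 of the intron for KIF21A (chr12:39724044-39724064, minus strand) and at nucleotide 219 for MARK3 (chr14:103964839-103964865, plus strand).
KIF21A 21 nt: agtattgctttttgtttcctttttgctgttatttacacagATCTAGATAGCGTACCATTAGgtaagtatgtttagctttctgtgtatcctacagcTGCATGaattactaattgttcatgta
MARK3 27 nt: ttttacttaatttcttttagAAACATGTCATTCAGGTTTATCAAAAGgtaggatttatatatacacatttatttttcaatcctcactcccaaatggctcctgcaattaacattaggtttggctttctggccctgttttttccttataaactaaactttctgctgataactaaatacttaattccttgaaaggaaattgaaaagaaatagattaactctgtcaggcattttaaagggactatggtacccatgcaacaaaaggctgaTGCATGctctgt

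The next 3 had higher inclusion in both RBFOXi libraries. MYO18A (chr17:27443462-27443473, minus strand) has 2 copies of UGCAUG before the exon, which end 26 and 19 nt from it. In DIAPH2 (chrX:96018099-96018119, plus strand) the motif ends 3 nt from the exon. DNM2 (chr19:10919245-10919256, plus strand) has none in the stretch printed.
MYO18A 12 nt: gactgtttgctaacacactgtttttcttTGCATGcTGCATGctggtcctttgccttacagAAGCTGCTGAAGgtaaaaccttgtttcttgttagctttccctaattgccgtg
DIAPH2 21 nt: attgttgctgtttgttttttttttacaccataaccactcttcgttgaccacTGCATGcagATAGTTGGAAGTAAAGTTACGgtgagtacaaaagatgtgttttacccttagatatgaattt
DNM2 12 nt: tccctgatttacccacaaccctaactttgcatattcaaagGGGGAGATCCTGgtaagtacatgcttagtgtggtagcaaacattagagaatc

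The last 5 had lower inclusion in both RBFOXi libraries with no UGCAUG within 300 nt on either side. The shorter core GCAUG, which is not marked, lies within 300 nt downstream in RAPGEF6, PICALM, FLNA and NAV2, and on neither side in UGGT1. It was found there beside 29.0% of tested microexons and 24.1% of all tested exons. They are in UGGT1 (chr2:128913966-128913989, plus strand), RAPGEF6 (chr5:130785716-130785739, minus strand), PICALM (chr11:85689113-85689136, minus strand), FLNA (chrX:153585619-153585642, minus strand) and NAV2 (chr11:20104138-20104146, plus strand). NAV2 is shown as the shortest of the microexons with lower inclusion at an unadjusted p-value under 0.05.
UGGT1 24 nt: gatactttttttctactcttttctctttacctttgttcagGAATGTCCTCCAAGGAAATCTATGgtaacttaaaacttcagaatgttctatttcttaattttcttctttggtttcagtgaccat
RAPGEF6 24 nt: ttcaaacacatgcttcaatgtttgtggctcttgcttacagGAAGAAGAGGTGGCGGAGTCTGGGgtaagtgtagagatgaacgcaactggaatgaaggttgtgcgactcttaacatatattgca
PICALM 24 nt: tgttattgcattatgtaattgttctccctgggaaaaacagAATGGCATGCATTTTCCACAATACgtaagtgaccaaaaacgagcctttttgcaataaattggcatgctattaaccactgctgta
FLNA 24 nt: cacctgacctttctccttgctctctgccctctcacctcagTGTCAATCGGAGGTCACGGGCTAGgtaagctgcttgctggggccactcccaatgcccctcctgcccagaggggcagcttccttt
NAV2 9 nt: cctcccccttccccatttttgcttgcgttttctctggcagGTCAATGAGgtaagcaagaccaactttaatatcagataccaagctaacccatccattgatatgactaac

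The depth behind the microexons was uneven. The authors counted, per library and event, the reads that fit the form with the exon (inclusion) and the form without it (skipping), and those counts summed to between 114415530 and 136097319 per library over all skipped exon events. A read that suits more than 1 event is counted in each of them. The median count per tested microexon was 179 and 210.5 in the RBFOXi libraries, 98 in SCRM replicate 1 and 208.5 in SCRM replicate 2. SCRM replicate 1 stood apart. It held fewer than 20 counts at 42 of the 262 tested microexons, whereas each of the other libraries did so at 1, and its counts relative to SCRM replicate 2 ranged from 0.109 (percentile 10) to 1.65 (percentile 90) over the microexons. Its part in the results was not tested as a cause. Values without it are given beside the named microexons whose delta PSI moved by more than 1.5 times. Of the markers of the line, VIM, FN1, CD44, TNC and SPARC had between 8394 and 185009 counts per library in their best covered event. NES had 179 to 432. GFAP, S100B and CHI3L1 had no event, nor did the neuronal genes STMN2, RBFOX3, ELAVL4 and SRRM4, whereas SNAP25, GAP43, MAP2 and SYT1 did, with 8 to 91 counts for SYT1 and 176 to 3947 for the others. Of the markers of other glia and of microglia, MBP had at most 25 counts, CSF1R 407 to 838, and MOG, PTPRC and AIF1 had no event. RBFOX2 had 1335 and 1602 counts in the RBFOXi and 351 and 2392 in the SCRM libraries. RBFOX1 had no skipped exon event.

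The lengths of the microexons were not spread evenly. The shortest present was 8 nt and the shortest tested 9 nt, and multiples of 3 stood out. There were 74 microexons of 27 nt, 66 of 24 nt and 46 of 21 nt, against 29 of 26 nt and 29 of 23 nt. In all, 289 of the 470 (61.5%) keep the reading frame. Among the tested microexons 174 of 262 (66.4%) did, beside 43.6% of the 1279 tested exons of 28 to 50 nt and 43.3% of all 28606 tested exons. Nearly all were known exons with canonical borders. Splice sites of the AG and GT type flanked 468 of the 470, 451 (96.0%) had the same 2 ends in GENCODE, and 406 (86.4%) had them in a coding exon. Of the 470, 215 shared an end with another annotated exon and 78 lay inside a longer annotated one, with 51 in both groups, and 228 stood alone, so that part of the microexons are the short form of an exon with alternative ends.

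**Figure D1:**
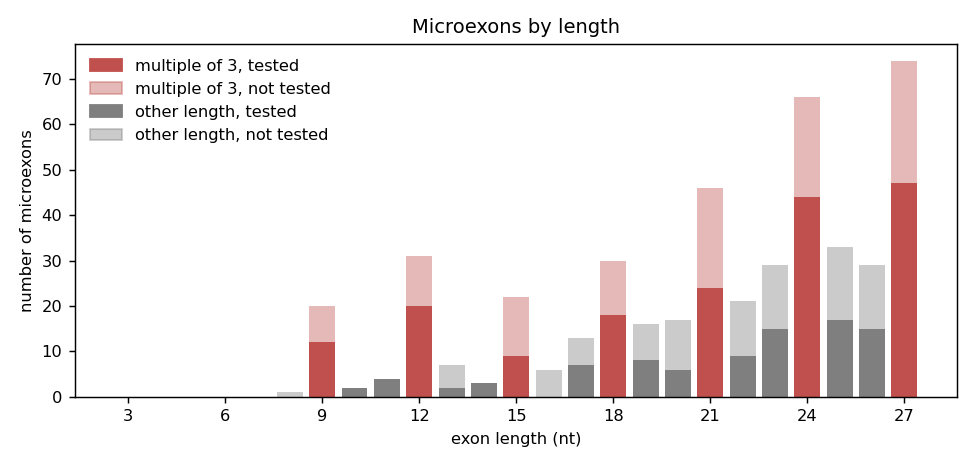
Number of microexons (y axis) at each exon length in nt (x axis), with multiples of 3 in red and other lengths in gray. The dark part of each bar is the tested microexons and the pale part those not tested, for too few counts in all or of either form. The bars at 27, 24 and 21 nt reach 74, 66 and 46, above all other lengths.

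The introns beside tested microexons had a median of 1671.5 nt upstream and 1399.5 nt downstream, beside 2387 and 2161.5 nt over all tested exons. Those beside stand-alone microexons were close to the latter, with 2293.5 and 2071.5 nt. Beside the microexons that share an end or lie inside a longer exon they were shorter, with 1197.5 and 1037 nt. The pyrimidine share of the 20 nt that end 3 nt before the exon had the same median, 75%, in tested microexons and in all tested exons. The hexamer CUCUCU, a form of the site of PTBP1, lay in the last 300 nt of the upstream intron of 59 tested microexons (22.5%), beside 15.3% of all tested exons. Downstream it was found beside 34 of the microexons and 12.6% of all tested exons. UGCAUG was present downstream within 300 nt of 31 (11.8%, beside 8.42% of all) and upstream within 300 nt of 33 (12.6%, beside 8.13%). Among exons of 28 to 50 nt it was present downstream of 11.4% and upstream of 9.85%, so that the downstream share was not particular to microexons. Motifs were sought on the transcribed strand only. The core GCAUG, which every UGCAUG holds, was found downstream of 29.0% (24.1% of all) and upstream of 22.1% (23.6%), and UACUAA, a form of the site of QKI, downstream of 9.16% (7.76%) and upstream of 8.78% (6.76%). These are matches in the reference sequence, not measured binding.

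Inclusion was given as PSI, the proportion spliced in, from counts of each form divided by its effective length. For the microexons whose neighboring exons are both longer than 93 nt, the effective length of the inclusion form was 2 × (length − 7) nt in 242 of 242, so that it shrinks to 4 nt at 9 nt. The inclusion counts did not shrink alike. In nearly constitutive exons, counts per effective nt relative to exons of 94 to 200 nt of the same gene had a median of 7.44 at 8 to 12 nt (5 exons), 5.18 at 13 to 18 nt (5 exons), 1.63 at 19 to 24 nt (25 exons) and 1.16 at 25 to 27 nt (15 exons). PSI of the shortest microexons is raised by this division. The share of inclusion among all counts, which uses no length, is given beside it for the sets and for some of the named exons. The log2 odds of inclusion between libraries do not depend on the length.

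**Figure D2:**
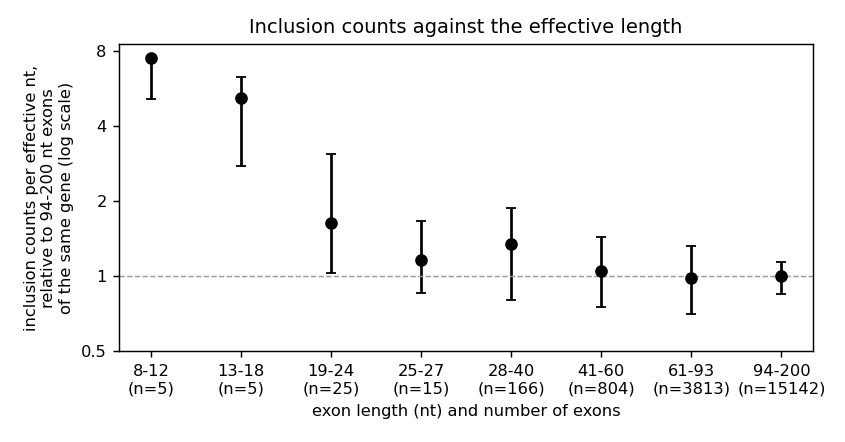
Inclusion counts per effective nt relative to exons of 94 to 200 nt of the same gene (y axis, log scale) for nearly constitutive exons by length class (x axis, with the number of exons). Points are medians and bars the quartiles. The median falls from 7.44 in the class of 8 to 12 nt to 1.16 at 25 to 27 nt.

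In SCRM cells nearly as many tested microexons were used at intermediate levels as were almost always included or skipped. The median PSI over microexons was 0.906, beside 0.968 for exons of 28 to 50 nt and 0.981 for all tested exons. PSI lay from 0.05 to 0.95 for 122 of the 262 (46.6%, beside 28.9% of all), above 0.95 for 114 (43.5%, beside 65.1%) and below 0.05 for 26. By the plain share the intermediate part was 145 (55.3%, beside 20.6% of all), with a median share of 0.693. The classes by length differed on both scales. At 9 to 12 nt the median PSI was 0.928 and the median share 0.451, at 13 to 18 nt 0.488 and 0.198, at 19 to 24 nt 0.813 and 0.636, and at 25 to 27 nt 0.949 and 0.893. Frame separated the microexons further. Multiples of 3 had a median PSI of 0.705, with 98 of 174 intermediate, and the other lengths 0.982, with 24 of 88 intermediate. These are descriptions of the control cells, with no test. They cover tested microexons only. Besides those with too few counts, the filter left out 70 with under 4 skipping and 32 with under 4 inclusion counts. The part of this filter and of depth in the differences from all tested exons was not tested.

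RBFOXi against SCRM asked which exons depend on RBFOX activity. Inclusion of 2 microexons fell, in the kinase gene MARK3 and the formin gene DIAPH1, and none rose past the threshold. This was an adjusted p-value under 0.05 together with a delta PSI of 0.1 or more in either direction, delta PSI being the RBFOXi mean less the SCRM mean. The log2 odds of inclusion were fitted with limma across all events, with p-values adjusted over them by Benjamini-Hochberg. The 2 of 262 stand beside a background of 0.0839% of all tested exons called, with 0.0664% lower and 0.0175% higher. At an unadjusted limma p-value under 0.05 there were 27 microexons (10.3%), 20 with lower and 7 with higher inclusion, beside 3.78% of all tested exons, 1.94% lower and 1.85% higher. Among exons of 28 to 50 nt the same count was 85 of 1279 (6.65%). Most microexons moved little. The median delta PSI was -4.33e-05 and the median absolute delta PSI 0.0141, beside 0.00748 over all tested exons, and 133 microexons were lower and 129 higher.

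The share at the unadjusted threshold moved with the level of inclusion and with frame. Of the 124 microexons with a mean PSI over the 4 libraries from 0.05 to 0.95, 23 (18.5%) had an unadjusted p-value under 0.05, beside 9.39% of such exons of 28 to 50 nt and 4.66% of all such exons. By the plain share it was 20 of 137 (14.6%, beside 8.69% at 28 to 50 nt and 5.95% of all). Within multiples of 3 at such PSI levels it was 21 of 101 (20.8%, beside 13.7% at 28 to 50 nt and 6.34% of all). By the plain share these were 17%, 13.3% and 8.29%. Within other lengths, again by PSI, it was 2 of 23 (8.7%, beside 4.91% at 28 to 50 nt and 3.2% of all). By length, 5 of 38 microexons of 9 to 12 nt, 6 of 39 of 13 to 18 nt, 11 of 106 of 19 to 24 nt and 5 of 79 of 25 to 27 nt passed it. At the border of the size class, 4 of 47 exons of 27 nt and 0 of 10 exons of 28 nt did. The PSI of the 2 RBFOXi libraries lay wholly on the same side of the SCRM libraries for 98 microexons (37.4%), 51 lower and 47 higher, beside 31.0% of all tested exons, 17.1% lower and 13.9% higher. A difference of at least 0.1 in PSI was seen at 45 (17.2%), beside 4.42%, with 31 lower (2.23% of all exons) and 14 higher (2.19%). Tested microexons had a median of 185 counts per library, beside 536 over all tested exons. The part of depth and of the effective length in these shares, and in the median absolute delta PSI, was not tested.

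**Figure D3:**
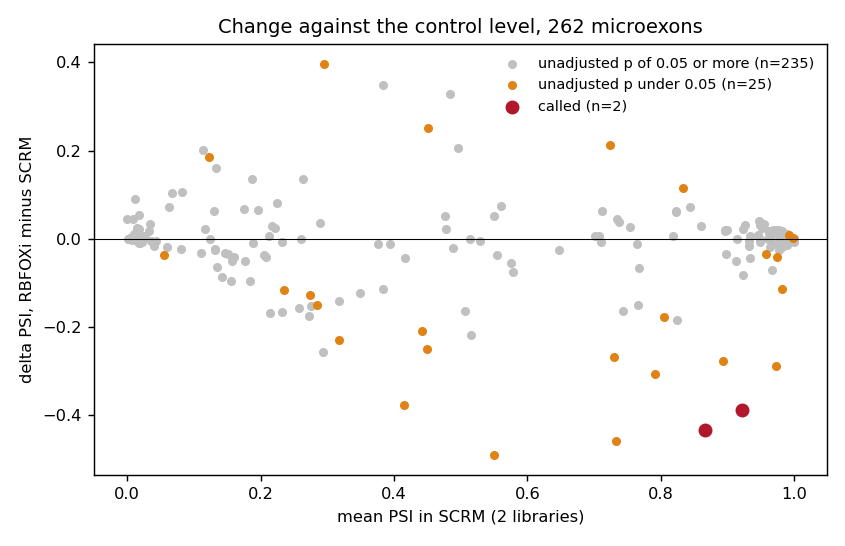
Delta PSI (y axis) against the mean PSI in SCRM (x axis) for the 262 tested microexons, 1 point each. The 2 called microexons are in red at SCRM levels of 0.867 and 0.922 with delta PSI of -0.434 and -0.388, the other 25 with an unadjusted p-value under 0.05 are orange, and most gray points lie near 0.

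All of these conditions together, separate libraries, an unadjusted p-value under 0.05 and a difference of at least 0.1, were met by 22 microexons (8.40%) in 21 genes, beside 1.01% of all tested exons. Inclusion was lower in 17 and higher in 5, 20 of the 22 were multiples of 3, and 20 had their ends in an annotated coding exon. Of the 22, 12 stood alone, with neither a shared end nor a longer exon around them, beside 120 of all 262 tested microexons. The limit of 0.1 was set on PSI. In plain shares some of the 22 changed by less, such as RPS24 (-0.070), the 15 nt exon of NFASC (-0.062) and TRIP10 (-0.050). Others changed by more, such as MARK3 (-0.483) and DIAPH1 (-0.496). In the plain share the direction was the same in 22 of 22. This was fixed beforehand, since share and PSI rise together within an exon. Where the libraries are separate, leaving out 1 of them cannot turn the direction of PSI either. The same direction without SCRM replicate 1 therefore adds no support for such exons. SCRM replicate 1 had fewer than 20 counts at 8 of the 22 and no other library did at any. Without SCRM replicate 1, 19 of the 22 kept a difference of at least 0.1, 14 of the 27 microexons kept an unadjusted p-value under 0.05 (13 of the 20 lower and 1 of the 7 higher), and the direction was the same in 27 of 27. In that fit 18 of all tested microexons had an unadjusted p-value under 0.05 (6.87%, beside 3.25% of all exons), 16 of them lower (beside 2.34%) and 2 higher. No microexon passed the adjusted threshold in that fit, which has 1 control library and called 2 of all 39615 events.

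**Figure D4:**
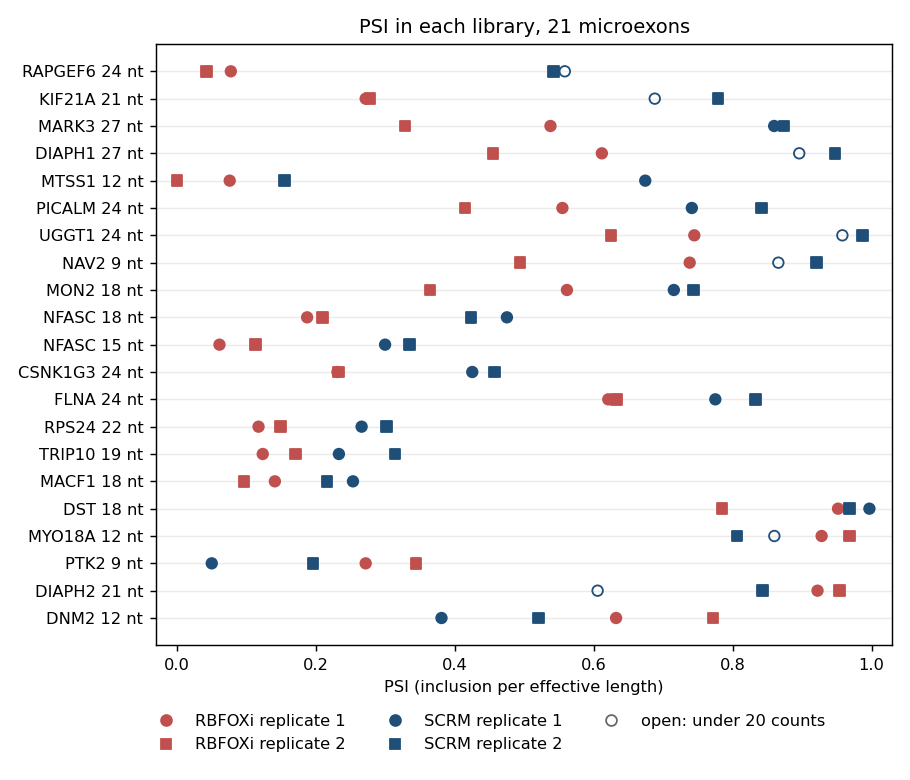
PSI (x axis, 0 to 1) in each of the 4 libraries for 21 of the 22 microexons, ordered by delta PSI (y axis, gene and length). Red marks are RBFOXi, blue marks SCRM, circles replicate 1 and squares replicate 2, and open marks have fewer than 20 counts. In the upper 17 both red marks lie left of both blue marks, from RAPGEF6 (delta PSI -0.490) to DST (-0.114), and in the lower 4 right of them.

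MARK3 encodes a microtubule affinity-regulating kinase, and its 27 nt microexon was included at a PSI of 0.538 and 0.328 in the RBFOXi libraries and 0.860 and 0.874 in the SCRM libraries. The SCRM libraries lay close together and both RBFOXi libraries well below them. The mean was 0.433 ± 0.148 against 0.867 ± 0.010 (SD, n = 2 each), from 215 to 432 counts per library. The log2 odds fell by 3.10 (SE 0.45; adjusted p-value 0.0187 by limma). Without RBFOXi replicate 1 or 2 the adjusted p-value was 4.22e-07 or 0.0222. Without SCRM replicate 1 or 2 the log2 odds change was -3.18 or -3.01 and the adjusted p-value 0.520 or 0.361. With 1 control library the spread comes from the RBFOXi libraries alone, the lone library is taken to vary like them, and only 2 and 1 of all 39615 events passed the threshold in these fits. The exon lies inside a longer annotated exon.

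DIAPH1, a formin that nucleates and elongates actin filaments, had PSI values of 0.612 and 0.455 with RBFOXi and 0.896 and 0.948 with SCRM at its 27 nt microexon. The groups did not overlap. The log2 odds fell by 3.31 (SE 0.53; adjusted p-value 0.0370 by limma). SCRM replicate 1 gave only 10 counts here and the other libraries 235 to 254. Without that library delta PSI was -0.414, the log2 odds change -3.95 and the adjusted p-value 0.159, and without SCRM replicate 2 the log2 odds change was -2.67 and the adjusted p-value 0.443. A second tested DIAPH1 microexon, of 9 nt, was nearly always included, and its delta PSI was -5.14e-04.

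Another 3 microexons had adjusted p-values just over the threshold. RPS24 encodes a protein of the small ribosomal subunit, and its 22 nt exon had the most counts of the 22, 6478 to 14676 per library. PSI was 0.118 and 0.149 with RBFOXi and 0.266 and 0.302 with SCRM (log2 odds change -1.37, SE 0.23, adjusted p-value 0.0576 by limma). This exon shares an end with another annotated exon and is one of 2 tested RPS24 microexons. The other, of 18 nt, had a delta PSI of -1.29e-03. FLNA encodes filamin A, which cross-links actin filaments, and is named here outside the naming rule, after its values were seen. With 3182 to 6582 counts per library, its 24 nt exon had a PSI of 0.621 and 0.633 with RBFOXi against 0.775 and 0.833 with SCRM (log2 odds change -1.30, SE 0.22, adjusted p-value 0.0576 by limma). UGGT1, the enzyme that senses misfolded glycoproteins in the endoplasmic reticulum, had a 24 nt exon at 0.745 and 0.625 against 0.958 and 0.987 (adjusted p-value 0.0661 by limma), with 10 counts in SCRM replicate 1.

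Of the 5 largest negative differences in PSI, those besides MARK3 and DIAPH1 were at thinly covered exons or spread between the SCRM libraries. RAPGEF6, an exchange factor for Rap GTPases, had the lowest delta PSI, -0.490, at 24 nt. Its PSI was 0.078 and 0.042 with RBFOXi and 0.558 and 0.542 with SCRM, from 6 counts in SCRM replicate 1 and 31 to 69 in the others, and the adjusted p-value was 0.425 by limma. KIF21A, a kinesin motor that acts at the growing ends of microtubules, had a 21 nt exon at 0.272 and 0.278 against 0.688 and 0.779, from 11 counts in SCRM replicate 1 and at most 44 elsewhere. For both exons the groups were far apart, but from few inclusion counts. RAPGEF6 had 1 and 1 with RBFOXi and 2 in SCRM replicate 1, and KIF21A had 3 and 4 with RBFOXi and 4 in SCRM replicate 1. That the replicates lie close therefore says little. The KIF21A exon shares an end with another annotated exon, and its adjusted p-value was 0.999948 by limma. MTSS1, a membrane-bending protein, had a 12 nt exon at 0.076 and 0 against 0.674 and 0.155, so that its delta PSI of -0.377 came down to -0.117 without SCRM replicate 1.

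Other microexons with lower inclusion were in genes of membrane traffic, adhesion and signaling. PICALM, which helps to assemble clathrin coats, had a 24 nt exon at 0.555 and 0.415 with RBFOXi against 0.741 and 0.842 with SCRM. MON2, which works in traffic between Golgi and endosomes, had an 18 nt exon at 0.562 and 0.364 against 0.715 and 0.744. NAV2, a neuron navigator protein, had a 9 nt exon at 0.738 and 0.494 against 0.866 and 0.921, of which the plain share was on average 0.080 against 0.291. The groups were separate in each, with more spread between the RBFOXi than between the SCRM libraries. NFASC, the cell adhesion molecule neurofascin, was lower at 2 different microexons. That of 18 nt was at 0.188 and 0.210 against 0.475 and 0.423, and that of 15 nt at 0.061 and 0.113 against 0.300 and 0.335. In plain shares the 15 nt exon was on average at only 0.018 against 0.080. CSNK1G3, a casein kinase 1 isoform, had a 24 nt exon at 0.231 and 0.233 against 0.425 and 0.457, with tight replicates in both groups. None of these had an adjusted p-value under 0.05, with log2 odds changes from -1.38 (SE 0.39) for CSNK1G3 to -2.30 (SE 0.67) for the 15 nt exon of NFASC.

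Exons of cytoskeletal linkers were also among the lower ones. DST and MACF1 are spectraplakins, which connect actin filaments and microtubules. DST, named after its values were seen, had an 18 nt exon at 0.952 and 0.785 against 0.997 and 0.968. In plain shares it was on average at 0.566 against 0.906. Its log2 odds change of -3.37 was -1.83 without SCRM replicate 1. MACF1 had an 18 nt exon at 0.141 and 0.097 against 0.254 and 0.216. TRIP10, an adaptor that binds curved membranes and Cdc42, had a 19 nt exon at 0.124 and 0.171 against 0.233 and 0.314. PDLIM7, a LIM domain protein of actin fibers, had a 17 nt exon at 0.010 and 0.025 against 0.058 and 0.050. The lengths in TRIP10 and PDLIM7 do not keep the reading frame, and both share an end with another annotated exon.

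Higher inclusion in both RBFOXi libraries was measured at 5 of the 22, of which 4 are described. Dynamin 2, from DNM2, pinches vesicles from membranes, and its 12 nt exon was at 0.632 and 0.771 with RBFOXi against 0.381 and 0.520 with SCRM, a log2 odds change of 1.55 (SE 0.45). MYO18A, an unconventional myosin, had a 12 nt exon at 0.928 and 0.968 against 0.860 and 0.807, and was the only one of the 7 with higher inclusion that kept an unadjusted p-value under 0.05 without SCRM replicate 1. PTK2, the focal adhesion kinase, had a 9 nt exon at 0.272 and 0.344 against 0.050 and 0.196. Without SCRM replicate 1, which held 1 inclusion count, its delta PSI of 0.185 was 0.112 and its log2 odds change of 1.68 was 0.82. In plain shares PTK2 was on average at only 0.020 against 0.007. The plain share of DNM2 was on average 0.217 against 0.086, a minority in both groups, and that of MYO18A 0.689 against 0.372. DIAPH2, a formin like DIAPH1, had a 21 nt exon, not in the annotation used, at 0.922 and 0.953 against 0.606 and 0.843. SCRM replicate 1 had 12 counts there, and without it delta PSI was 0.095 in place of 0.213, with an unadjusted limma p-value of 0.175. LTBR, the lymphotoxin beta receptor, and PET100, a cytochrome c oxidase assembly factor, had PSI of 1 in both RBFOXi libraries and at least 0.990 in SCRM, differences of under 0.01.

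Motifs and direction were set side by side without a test. Of the 20 microexons with lower inclusion at an unadjusted p-value under 0.05, 5 had UGCAUG in the 300 nt downstream (25%), 3 in the 300 nt upstream and 13 on neither side, with 1 on both. Of the 7 with higher inclusion, 1 had it downstream, 4 upstream (57.1%) and 3 on neither side, with 1 on both. Among the 235 others the shares were 10.6% downstream and 11.1% upstream. Of all tested exons, 554 had lower inclusion at this threshold, 140 of them with UGCAUG downstream and 53 upstream. Of the 528 with higher inclusion, 43 had it downstream and 71 upstream. The downstream share of the lower microexons was thus close to that of all lower exons. The 5 lower exons with the motif downstream are those of DIAPH1 (starting at nucleotide 24), KIF21A, MARK3, TRIP10 (starting at nucleotide 137) and MON2 (162), the last with another copy that ends 120 nt before the exon. The 4 higher exons with the motif upstream are those of MYO18A, DIAPH2, PTK2 (ending 228 nt away) and DNM2 (263 nt away), and PTK2 also has it at nucleotide 58 downstream. The lower exons of CSNK1G3 (161 nt) and RPS24 (98 nt) have it upstream. Over all 31 tested microexons with UGCAUG downstream, 19 were lower and 12 higher, with a median log2 odds change of -0.41. Over the 33 with it upstream, 15 were lower and 18 higher, with a median of 0.14. Over all 28606 tested exons, the medians were -0.11 for the 2409 with UGCAUG downstream and 0.06 for the 2325 with it upstream. In delta PSI the median was -0.00129 for the 31, beside -0.00133 for the 2409. For the 28 microexons with the motif downstream only, the median log2 odds change was -0.24. At a mean PSI from 0.05 to 0.95, 13 of 18 microexons with it downstream were lower (median delta PSI -0.081, beside -0.013 of all such exons). With it upstream 10 of 19 were lower (-0.012, beside 0.0083). The 201 microexons with no UGCAUG within 300 nt still held 13 of the 20 lower and 3 of the 7 higher ones. Some of these have the core GCAUG there, which was not counted by direction.

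**Figure D5:**
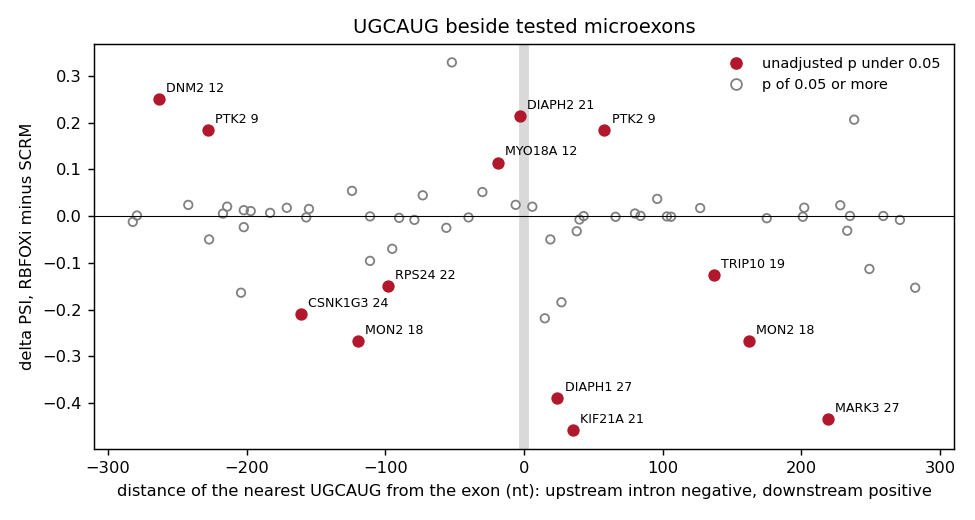
Delta PSI (y axis) of the tested microexons with UGCAUG within 300 nt against the distance of the nearest copy (x axis, nt; upstream negative, downstream positive, the exon at 0 as a gray band). Red points have an unadjusted p-value under 0.05. MON2 and PTK2 appear on both sides. DIAPH1, KIF21A and MARK3 lie low at distances of 24, 35 and 219 nt downstream, and DIAPH2 and MYO18A lie high at 3 and 19 nt upstream.

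Some microexons close to UGCAUG gave values in the same directions without passing the unadjusted threshold. AP1G1, a subunit of the AP-1 clathrin adaptor, has the motif at nucleotide 27 downstream of a 9 nt exon, with PSI of 0.723 and 0.559 with RBFOXi against 0.854 and 0.796 with SCRM, from 7 counts in SCRM replicate 1. CADPS2, which primes dense-core vesicles, has it at nucleotide 15 downstream of a 21 nt exon, at 0.268 and 0.327 against 0.626 and 0.406. Without SCRM replicate 1 its delta PSI of -0.218 was -0.108. SUCO has it 52 nt upstream of a 21 nt exon, at 0.961 and 0.667 against 0.700 and 0.269, where the groups overlapped and SCRM replicate 1 had 5 counts, without which delta PSI was 0.544 in place of 0.329. Others went the other way or did not separate. ROBO1, a receptor of the guidance cue Slit, has UGCAUG at nucleotide 238 downstream of a 27 nt exon, at 0.783 and 0.621 against 0.474 and 0.517. ACOT9, an acyl-CoA thioesterase, has it 204 nt upstream, at 0.661 and 0.498 against 0.707 and 0.779. AP1B1, a further AP-1 subunit, has it 30 nt upstream of a 9 nt exon, at 0.651 and 0.553 against 0.483 and 0.618, and ABI1, an adaptor of actin assembly, 242 nt upstream of a 15 nt exon, at 0.191 and 0.301 against 0.153 and 0.292. MEF2D, a transcription factor, has it at nucleotide 233 downstream of a 21 nt exon, at 0.052 and 0.107 against 0.143 and 0.079. The groups of the last 3 overlapped, and without SCRM replicate 1 their delta PSI of 0.052, 0.024 and -0.031 was -0.016, -0.045 and 0.001.

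By the role of the host gene, 51 tested microexons lay in genes of the lists used, and 17 of them had an unadjusted p-value under 0.05 (12 lower, 5 higher), with a median delta PSI of -0.0103. Over all tested microexons it was 27 of 262 (10.3%). The lists were drawn up with earlier results of these data known, so this count does not set them apart. Of the 18 in cytoskeletal genes, 1 was called (DIAPH1), 5 were lower and 3 higher at that threshold, among them DIAPH1, KIF21A, DST and MACF1 on the lower and MYO18A and DIAPH2 on the higher side. SPTAN1, the alpha chain of non-erythroid spectrin, had an 18 nt exon at 0.848 and 0.877 against 0.922 and 0.903, and the 9 nt exon of the cargo motor MYO5A was at 0.921 and 0.914 against 0.887 and 0.906 (delta PSI 0.021, and 0.011 without SCRM replicate 1). Of the 15 in endocytosis and vesicle traffic, 2 were lower (PICALM and TRIP10) and 1 higher (DNM2). Of the 7 in kinases and phosphatases, 1 was called (MARK3), 2 were lower with it (MARK3 and CSNK1G3) and 1 higher (PTK2), and the 9 nt exon of the kinase MAP4K4 was at 0.786 and 0.762 against 0.673 and 0.751 (delta PSI 0.062, and 0.024 without SCRM replicate 1). Of the 7 in adhesion and receptor genes, the 2 of NFASC were lower and none higher, and the 12 nt exon of the receptor phosphatase PTPRS was at 0.659 and 0.745 against 0.787 and 0.748. Both small GTPase regulators, RAPGEF6 and RAPGEF2, had lower PSI with RBFOXi, RAPGEF2 with 0.822 and 0.861 against 0.927 and 0.919, and 1 of the 2 passed the unadjusted threshold. Neither of the transcription factor exons, in MEF2A and MEF2D, did. That of MEF2A, of 24 nt, spread from 0.050 to 0.464 between the SCRM libraries, and its delta PSI of -0.157 was 0.050 without SCRM replicate 1. No microexon was tested in the splicing regulators listed.

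The 9 nt exons show the limits at the short end. KIF3A, a kinesin-2 motor, had 0.721 and 0.745 with RBFOXi and 0 and 0.767 with SCRM, so that its delta PSI of 0.349 was -0.034 without SCRM replicate 1. NUDT5, a hydrolase of ADP-sugars, was at 0.999 and 1 against 0.997 and 1, with a delta PSI of 0.000939 that was -0.000452 without SCRM replicate 1. For AP1G1 the mean PSI in SCRM was 0.825 while inclusion reads were only 0.122 of the counts, and for MAP4K4 these were 0.712 and 0.105.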

How the data were processed

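RNA-seq libraries of U87MG cells, 2 with RBFOXi and 2 with SCRM, were grouped by their labels. Per the labels and methods, the authors kept uniquely aligned reads (STAR 2.4.2a, hg19) and rMATS counted those of each splicing event. The deposited values used, in other than a standard unit, are raw inclusion and skipping counts per library, written as pairs and not normalized, and each form's effective length. The authors' p-values, FDR, inclusion levels and the tables of other event types were not used.

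Microexons and gene lists were chosen with earlier results of these data known. The event with the largest count represented each exon. An event was tested if each library had 5 counts, the library mean was 20 and each form had 4 counts in all (39615 events, 28606 exons). Of 208 microexons not tested, 106 had too few counts, 70 under 4 skipping and 32 under 4 inclusion counts. With 0.5 added to both counts, log2 inclusion odds went into limma 3.58.1 (R 4.3.3) with condition as the only term, with the variance trend on each event's information, and adjusted by Benjamini-Hochberg over all tested events. The fit was also run on simulated counts with the same noise in every library. That setting holds no library that stands apart as SCRM replicate 1 does, so it cannot vouch for the calls. Counts are not independent molecules, and p-values measure the spread between 2 libraries a group.

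Sequences and motifs came from GRCh37 and exons from GENCODE 44 lifted to it, read with Python 3.11.15 and pyfaidx 0.9.0.4. Named were called microexons, the 12 largest falls and 8 largest rises among separate groups with an unadjusted p-value under 0.05 (7 rises qualified), those with UGCAUG within 300 nt or in the lists and a SCRM PSI from 0.05 to 0.95, and the 5 shortest; of these 61, members that neither differed nor served a comparison are given by counts, and 1 with higher inclusion and some other values are not reported here. FLNA and DST were named after their values were seen. Alternatives covered the pseudocount, filter, test, replicate block, event choice, centring, PSI definition, intron window and each library left out.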

Additional observations from a re-analysis of the deposited data

How the results depend on the processing

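The 2 called microexons were 0 with a pseudocount of 0.1, 5 with a pseudocount of 1, 5 with a filter of 1 count, 1 with a filter of 20 counts, 21 by Fisher's exact test on summed counts, which ignores the spread between libraries, 4 with 1 event per exon in the fit, 0 among exons up to 15 nt, and between 0 and 5 without each library in turn. It was 0 without either SCRM library, where the spread rests on the RBFOXi pair and 2 and 1 of all events were called, and 5 and 4 without RBFOXi replicate 1 and 2, where 69 and 32 were. The log2 odds changes without SCRM replicate 1 and 2 were -3.18 and -3.01 for MARK3 and -3.95 and -2.67 for DIAPH1. Chosen after seeing the data, a quasi-binomial F test called 5 and stand-alone microexons held 1. Over all events the main fit called 27, and pseudocounts of 0.1 and 1 called 1 and 40. The filters of 1 and 20 counts called 44 and 27 of all events, and the fit with 1 event per exon 27. Fisher's exact test called 317 of all events and the quasi-binomial test 52. The 27 microexons at an unadjusted p-value under 0.05 became 66 by Fisher's exact test, 13 among the stand-alone, and 18 to 38 without each library. The median SCRM PSI of 0.906 was 0.693 as a plain share and 0.893 to 0.910 by library. UGCAUG was found downstream of 20 microexons within 200 nt and 117 in the whole intron (GCAUG 76), and upstream of 21 and 127 (GCAUG 58). In the whole intron the microexons were below all tested exons, with 44.7% beside 49.2% downstream and 48.5% beside 50.2% upstream.

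With the replicate number as a block, 11 microexons were called, beside 119 of all events, and 41 microexons had an unadjusted limma p-value under 0.05. Deviations of same-numbered libraries correlated at 0.202 over tested microexons and 0.0944 over all events, and with 2 pairs the numbers were not shown to pair the libraries.

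Named log2 odds changes turned sign without a library for KIF3A (-0.23 to 3.14), MEF2A (-3.30 to 0.61), AP1B1 (-0.0885 to 0.70), NUDT5 (-0.32 to 2.02) and ABI1 (-0.36 to 0.76), and for ABI1 also by Fisher's exact test (-0.00487) and the quasi-binomial test (-0.00903). The causes were not tested. The planned count model over both forms was not run. With 2 libraries a group and few counts in SCRM replicate 1, an uncalled microexon is not shown to be unaffected.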
